A study of Mus musculus and Homo sapiens with 32 samples.

Results

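Rn45s and Lars2 are the names under which the deposited mouse files list the 2 stretches of RNA that hold more sequencing reads than any other listed region of the Mettl3 genotype experiment. They were chosen by name, and the share of reads that they take is what singled them out, so that share is described here and not tested. The genotype table lists 8 of its 33473 regions under these names, 1 for Rn45s and 7 for Lars2. The MeTPeak lists hold 6 of 20055 peaks for them in wild-type and 2 of 20482 in KO, and 4 of the 5 mouse MACS2 lists hold 1 peak each on their exon blocks. Of the 11197 gene names that any of the genotype files places on mm9, these are 2.

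The study mapped N6-methyladenosine (m6A), a methyl group on the adenosines of RNA, by m6A-CT, in which an anti-m6A antibody directs the transposase pAG-Tn5 to RNA paired with cDNA inside nuclei. Input libraries were tagmented without antibody. The genotype set is made of mouse embryonic stem cells of 2 lines, C57BL/6 wild-type and C57BL/6 Mettl3-/- (KO, drawn as Mettl3 KO in the plots), with 2 m6A-CT libraries (MilliporeSigma antibody) and 2 input libraries per line, 8 in all. The other mouse groups used here are peak lists from m6A-CT libraries, 2 per group beside their inputs, made with a Synaptic Systems antibody: embryonic stem cells of line E14 (from 100K, from 25K and from 5K nuclei), EPSC, which are expanded potential stem cells labelled with E14 as their line (100K), and CF1 embryonic fibroblasts, MEF (100K). Which part of Mettl3 was removed, and whether each genotype is 1 clone, is not given in the labels. The files hold 1 value per group, so no replicate error exists for anything below and intervals cover counting error alone.

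Ribosomal RNA is made as a long precursor by RNA polymerase I in the nucleolus and is cut into the RNAs of both ribosomal subunits; Rn45s is the mouse name for that precursor. Its genes stand in tandem arrays of near-identical copies, and how the authors placed reads that match several copies is not given in the sources used here, so the Rn45s values are uncertain as to locus. That treatment is equally unknown for the reads listed under Lars2, whose sequence was not examined here, so their locus too is that of the file. Mature ribosomal RNA carries m6A that Mettl5 with its partner Trmt112 writes on the small subunit and Zcchc4 on the large one. Mettl3, with Mettl14, writes the m6A of messenger RNA. Lars2 is a nuclear gene for the mitochondrial leucyl-tRNA synthetase, the enzyme that loads leucine onto tRNA inside mitochondria.

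Per the files' mm9 coordinates, the Rn45s region is a single block of 5825 bp on the plus strand at chr17:39979942-39985766. The read-rich Lars2 region is a single block of 1163 bp on the plus strand at chr9:123370631-123371793, the most downstream of the 7 listed for that gene. The other 6 are blocks of 75 to 275 bp between chr9:123280985 and chr9:123347350. Regions of the genotype table are built from exons; whether these lie in coding or untranslated sequence was not analysed here, since no mm9 annotation was used.

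Reads on Rn45s made up 14.6% of the m6A-CT and 45.5% of the input reads of wild-type, against 29.3% of the m6A-CT and 59.5% of the input reads of KO. For Lars2 the shares were 21.9% and 30.9% in wild-type, then 25.1% and 21.5% in KO, in the same order. Both genes thus took a smaller share of wild-type m6A-CT than of wild-type input, and for Rn45s the same held in KO, whereas Lars2 took more of KO m6A-CT than of KO input. Together they held 36.5% and 76.4% of wild-type m6A-CT and input, and 54.5% and 81.0% of those of KO. The column totals, recovered from the RPM values, were 39310394 and 45090626 reads for wild-type and 37532658 and 51031598 for KO. At this depth the Wilson 95% interval of the Rn45s share in wild-type m6A-CT ran from 14.57% to 14.59%.

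**Figure D1:**
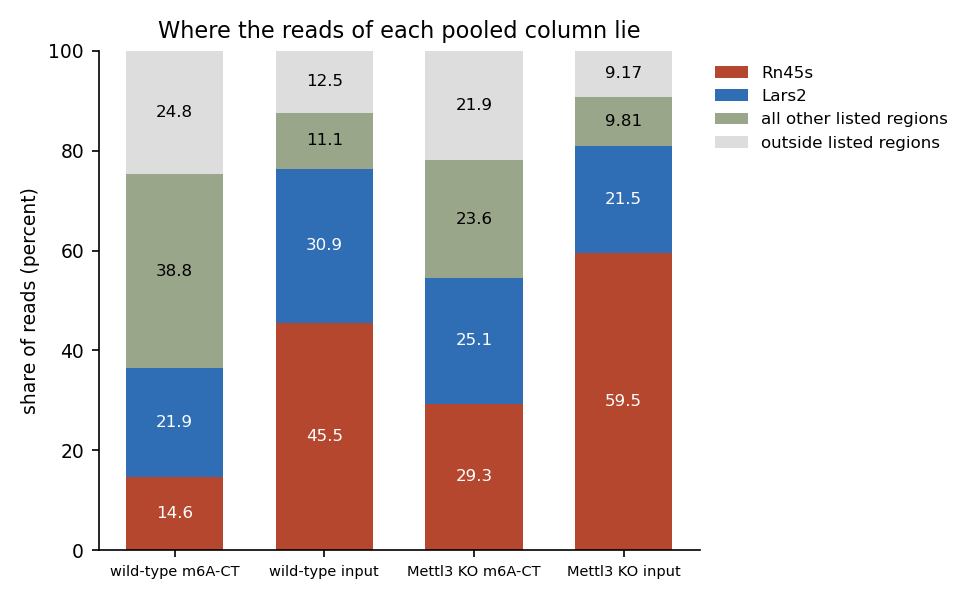
Share of reads (percent, y axis) in Rn45s, in Lars2, in all other listed regions and outside the listed regions, for the 4 group columns of the genotype table (x axis). The stacked Rn45s and Lars2 bars reach 36.5% in wild-type m6A-CT and 81.0% in KO input, and all other listed regions take from 9.81% to 38.8%.

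No other region came near these levels. The next highest region was that of Arhgap21, at 13115 (wild-type) and 16848 RPM (KO) in m6A-CT. In both inputs it was that of Cadps2, a gene for a protein of vesicle release, at 1397 (wild-type) and 1473 RPM (KO). The lower of the 2 read-rich regions stood 11.1-fold and 14.9-fold above Arhgap21 in m6A-CT, and 221-fold and 146-fold above Cadps2 in input. The genes that follow in reads summed over the columns were Arhgap21 (1204012 reads), Fn1 for fibronectin (488584), Cadps2 (390688), Eef2 for the translation elongation factor (270267) and Actb for actin (202514). Rn45s had 67613847 reads and the read-rich Lars2 region 42953320.

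Lars2 and Rn45s did not keep a fixed proportion. Lars2 reads were 1.50 times the Rn45s reads in m6A-CT and 0.680 times in input for wild-type, and 0.856 times in m6A-CT and 0.362 times in input for KO. The proportion was higher in m6A-CT than in input in both genotypes, and lower in KO than in wild-type in both kinds of library. Per length, the Lars2 region was the denser in all 4 columns. It held 188075 (m6A-CT) and 265920 (input) RPM per kb for wild-type, 215958 and 185061 for KO, against 25033, 78095, 50363 and 102130 RPM per kb on Rn45s. Its density was thus 7.51, 3.41, 4.29 and 1.81 times that of Rn45s.

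The m6A-CT over input ratio of both regions was low beside that of other listed regions. Only regions that the genotype table lists could be compared, and they need not stand for all transcribed RNA. For Rn45s, 145817 RPM (m6A-CT) over 454905 RPM (input) gave a ratio of 0.321 in wild-type (95% counting interval 0.3202 to 0.3208), and 293363 over 594908 RPM gave 0.493 in KO. For Lars2, 218731 over 309265 RPM gave 0.707 in wild-type and 251159 over 215226 RPM gave 1.17 in KO. Among 30310 other regions with at least 50 reads over the 4 columns, 93.3% had a ratio above 1 in wild-type and 85.3% in KO, at medians of 3.35 and 2.00. Of those with reads in both libraries, 0.507% lay below Rn45s in wild-type and 2.22% in KO, and 3.20% and 20.9% lay below Lars2. Only the ratio of Lars2 in KO was above 1, and only on totals that include both genes: on totals without their reads it was 0.486.

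Because RPM divides by all reads, the unequal shares of both genes also enter the ratio of every other region. The reads left without them numbered 24979451 and 10633541 in wild-type m6A-CT and input, and 17095159 and 9688947 in KO. On those totals every ratio was 2.69-fold lower in wild-type and 2.40-fold lower in KO than by RPM. The median of the other regions went from 3.35 to 1.24 in wild-type and from 2.00 to 0.833 in KO. Regions above 1 went from 28270 to 18447 of 30310 in wild-type and from 25850 to 11842 in KO. Regions above 2-fold went from 22637 to 8533 in wild-type and from 15135 to 3051 in KO. Order among regions within a genotype is the same on both totals, and Rn45s stood at 0.119 and 0.206 on the second.

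**Figure D2:**
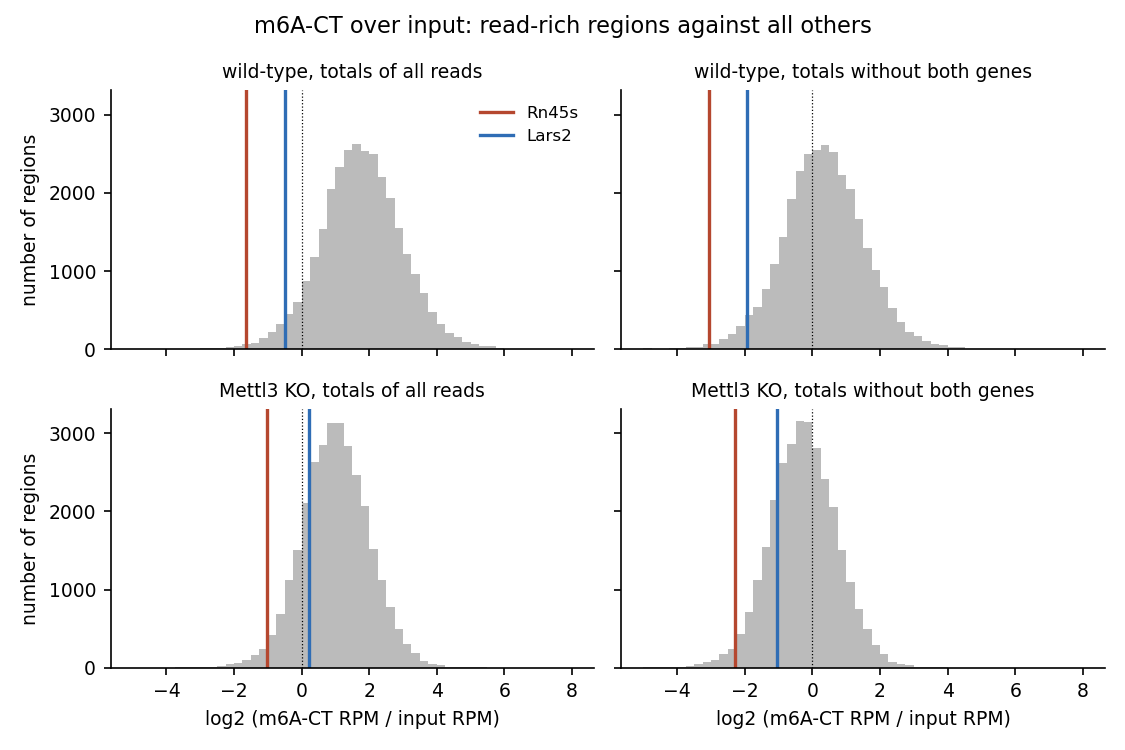
Number of regions (y axis) by log2 of m6A-CT RPM over input RPM (x axis) for the other regions with at least 50 reads, in wild-type (top) and KO (bottom), on totals of all reads (left) and without Rn45s and Lars2 (right). Lines mark Rn45s and the read-rich Lars2 region, bars at either end include values beyond the axis, and the whole distribution lies 1.43 lower in wild-type and 1.26 lower in KO on the right (log2).

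Between genotypes, Rn45s was higher in KO in both kinds of library. Its level in input went from 454905 to 594908 RPM (log2 difference 0.39), and in m6A-CT from 145817 to 293363 RPM (1.01, or 2.01-fold). Lars2 was lower in input, from 309265 to 215226 RPM (-0.52), and higher in m6A-CT, from 218731 to 251159 RPM (0.20). The median of 30138 other regions with reads in all columns differed by -0.03 in input and by -0.74 in m6A-CT. Without the reads of both genes in the totals, all input differences shift by 0.31 and all m6A-CT differences by 0.48 (log2). On that scale the Rn45s differences were 0.70 in input and 1.49 in m6A-CT, and those of Lars2 were -0.21 and 0.68. The direction for each gene and library was the same on both scales and after centring on the median of other regions. With 1 value per group none of these differences has a replicate check.

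The authors' deposited table sets m6A-CT over input in KO against the same in wild-type. It gives Rn45s a log2 fold change of 0.0075 (p-value 1.03e-18, FDR 7.14e-17), the smallest in absolute size of all 33473 regions. For the read-rich Lars2 region the authors' deposited table gives 0.20, the 27th smallest, with the p-value and FDR listed as 0. Nearly all listed regions have an FDR under 0.05. Changes this near 0 reach it only with very many reads, so these ranks also reflect depth. In signed order 89.0% of the regions lie below each. Counting standard errors of the RPM change were 0.00085 (Rn45s) and 0.00090 (Lars2), so p-values this small can follow from read counts alone. How the authors' p-values treat replicates is not given in the sources used here. Of the regions in that table, 99.8% have an FDR under 0.05, 88.8% with a lower and 11% with a higher value in KO. Of the rest, 4 have an FDR of 0.05 or over and 78 have none. Whether regions were left out by FDR is not given in the sources used here. These are thus shares of the listed regions and need not hold for all regions tested.

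On the RPM scale the same changes were 0.62 for Rn45s and 0.72 for Lars2, and without the reads of both genes 0.79 and 0.89. The median RPM change of the other regions was -0.80, and -0.64 without both genes. Relative to that median, Rn45s was 1.43 higher and Lars2 1.53 higher (log2). Of the listed regions 88.8% are called lower in KO, so this median need not mark a level of no change. The value in the authors' deposited table was lower than the RPM change by a median of 0.50 over other regions, with quartiles of 0.47 and 0.52. For Rn45s that gap was 0.61 and for Lars2 0.53. Both members thus have a value near 0 in the authors' deposited table and a positive one by RPM.

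The 6 small Lars2 regions behaved otherwise than the read-rich one. Their levels ran from 0.636 to 3.31 RPM in wild-type m6A-CT and from 0.200 to 1.51 RPM in wild-type input. In KO they ran from 0.426 to 1.25 RPM in m6A-CT and from 0.392 to 1.29 RPM in input. Summed, they held 405, 203, 167 and 236 reads in wild-type m6A-CT and input and in KO m6A-CT and input. Per length, the read-rich region was 15060 times denser than these 6 together in m6A-CT and 48730 times in input for wild-type, and 40042 and 33014 times for KO. A single gene model thus spans stretches whose read densities differ by more than 4 powers of 10 in every column.

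In all 6 small Lars2 regions m6A-CT over input was higher in wild-type than in KO, at 1.49 to 5.10 against 0.659 to 2.04 by RPM. Summed, the ratio was 2.29 in wild-type and 0.962 in KO, a log2 change of -1.25 (95% counting interval -1.63 to -0.87). Their summed input differed by 0.04 (-0.23 to 0.31) and their summed m6A-CT by -1.21 (-1.47 to -0.95) by RPM. Without the reads of both genes in the totals these differences were 0.35 in input and -0.73 in m6A-CT. In the authors' deposited table the 6 fell by 1.57 to 2.15 (log2), at FDR from 1.93e-05 to 0.0169. Of all its regions, 88.8% are called lower, and from 20.9% to 39.3% have a lower value than each of these 6. The median RPM change of the other regions was -0.80, so a fall was common to most listed regions. On totals without both genes the summed ratios were 0.849 and 0.401, and the change was -1.08.

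The Lars2 region at chr9:123347276-123347350 had the highest ratio of the 7 in wild-type, 5.10 (3.06 to 8.50), from 80 m6A-CT and 18 input reads. In KO it stood at 2.04 (1.16 to 3.59), from 30 and 20 reads. The region with the most reads among the 6, at chr9:123345242-123345516, went from 2.19 (1.64 to 2.94) to 0.968 (0.666 to 1.41). The lowest ratio of the 6 in wild-type was that at chr9:123341027-123341101, at 1.49 (1.06 to 2.07), which was 0.659 (0.432 to 1.01) in KO. Counting intervals of both genotypes overlapped for 4 of the 6 and were apart for 2, the regions at chr9:123341027-123341101 and chr9:123345242-123345516, which have the most reads. Without the reads of both genes in the totals, the wild-type ratio was above 1 for 2 of the 6.

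**Figure D3:**
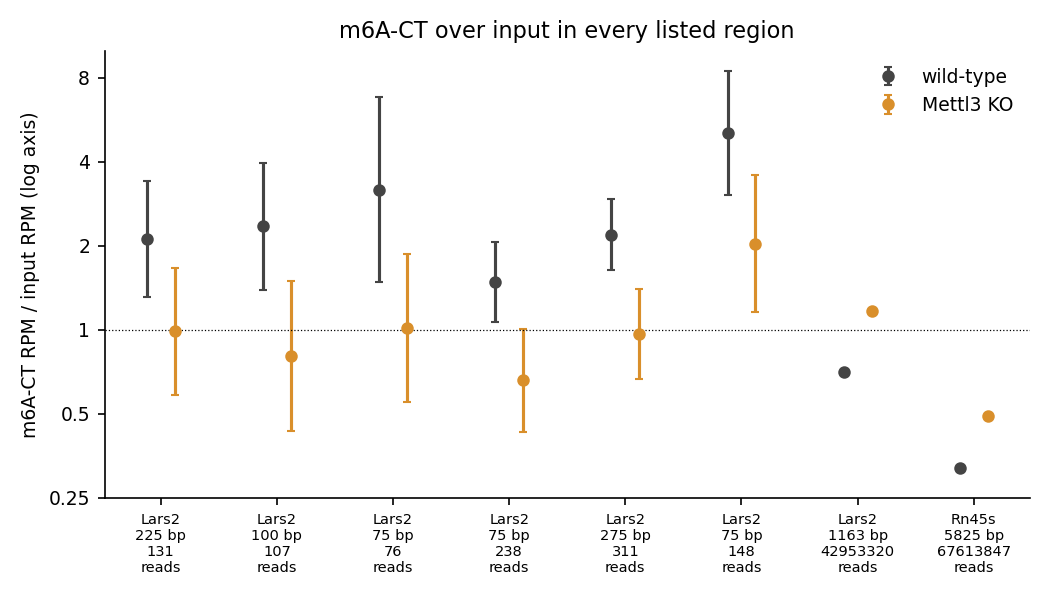
Ratio of m6A-CT RPM to input RPM (log axis) in the 7 Lars2 regions, in genomic order, and in Rn45s, for wild-type and KO. Points are the group's value and bars the 95% counting interval, which is smaller than the point for the 2 read-rich regions; the 6 small Lars2 regions are lower in KO, and both read-rich regions are higher.

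MeTPeak, the authors' caller for peaks within a genotype, lists Rn45s in both. Any peak at all was listed for 52.1% of the placed genes in wild-type and 41.4% in KO. In wild-type the main Rn45s peak spans 3142 bp (chr17:39980141-39983282) at 63.2-fold, place 15 in its list. In KO it spans 3241 bp (chr17:39980042-39983282) at 62.1-fold, the highest fold of its list. A second peak of 599 bp, chr17:39985176-39985774, has the same ends in both genotypes, at 13.5-fold in wild-type and 20.4-fold in KO. Together they cover 64.1% of the Rn45s region in wild-type and 65.8% in KO. List medians were 3.71-fold and 3.25-fold.

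These folds and the RPM ratios differ in kind. By RPM the whole Rn45s region had 0.321 and 0.493 times as many m6A-CT as input reads, while peaks over most of its length carry deposited folds from 13.5 to 63.2. How MeTPeak's fold was computed is not given in the sources used here, so the pair is set side by side without comparison of size.

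For Lars2 MeTPeak lists 4 peaks in wild-type and 0 in KO. The first, of 151 bp at chr9:123276344-123276494, lies upstream of all 7 regions of the genotype table, at 3.5-fold. The second joins 3 blocks between chr9:123347344 and chr9:123361867 at 3-fold and the third, of 101 bp, is at chr9:123362381-123362481 and 3.25-fold. The highest, at 6-fold, joins 5 blocks between chr9:123363897 and chr9:123370995, and 365 bp of it fall in the read-rich region, 31.4% of that region's length. A fold of 6 lies above 75.5% of the wild-type list, and the other 3 lie above 30.8% to 43.1%. Although 9426649 m6A-CT reads of KO lie in the read-rich Lars2 region, no KO peak is listed there.

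In the MACS2 lists, made from the groups with the Synaptic Systems antibody, Rn45s has 1 peak in E14 at 100K and 1 in EPSC, and none at 25K or 5K of E14, or in MEF. The share of placed genes with a peak on their blocks was 18.9% for E14 at 100K, 9.93% at 25K, 14.9% at 5K, 27.2% in EPSC and 39.7% in MEF. The E14 peak lies at chr17:39981067-39981283 and the EPSC peak at chr17:39981059-39981283. They share their end and their summit at position 39981190, which is 1248 bp from the start of the Rn45s region. Both lie wholly within the main MeTPeak peak of either genotype.

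The 2 Rn45s peaks join a low fold to a very strong q. Their deposited fold enrichment at the summit is 1.49 in each list, which exceeds that of only 15 of the 8052 peaks in E14 and 28 of the 12183 in EPSC. Their -log10 q is 5739 in E14, place 83, and 7436 in EPSC, place 71. No other E14 peak has a q this strong at a fold this low, and 1 other EPSC peak does. List medians were 6.33-fold and 5.20-fold, at -log10 q of 18.0 and 19.1.

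**Figure D4:**
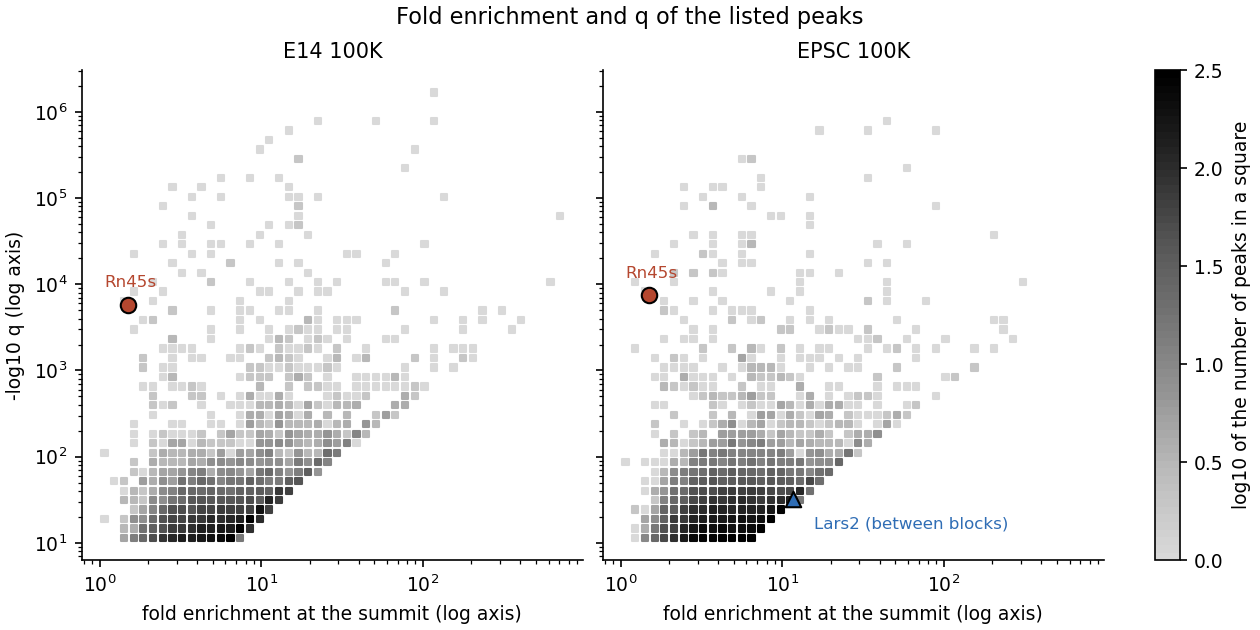
Fold enrichment at the summit (x axis, log) against -log10 q (y axis, log) of the listed peaks in E14 and EPSC at 100K nuclei, as squares shaded by the log10 number of peaks. The Rn45s peak (circle) sits at the left edge in both lists, at 1.49-fold, with a -log10 q of 5739 in E14 and 7436 in EPSC; the triangle is the EPSC peak in Lars2 that touches no listed block.

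Lars2 has no MACS2 peak on its read-rich region in any of the 5 lists. In E14 at 5K a peak at chr9:123341045-123341160 covers 57 bp of the small region at chr9:123341027-123341101, at 9.16-fold and a -log10 q of 19.7. In MEF a peak at chr9:123281045-123281157 lies wholly within the small region at chr9:123280985-123281209, at 4.85-fold and a -log10 q of 10.3. In EPSC a peak of 100 bp at chr9:123322215-123322314, at 11.6-fold and a -log10 q of 32.5, lies between listed blocks of the gene and touches none. E14 at 100K and at 25K have no peak within the listed span of Lars2. No position in Lars2 recurs between lists, and each of these peaks is far weaker in q than those on Rn45s.

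**Figure D5:**
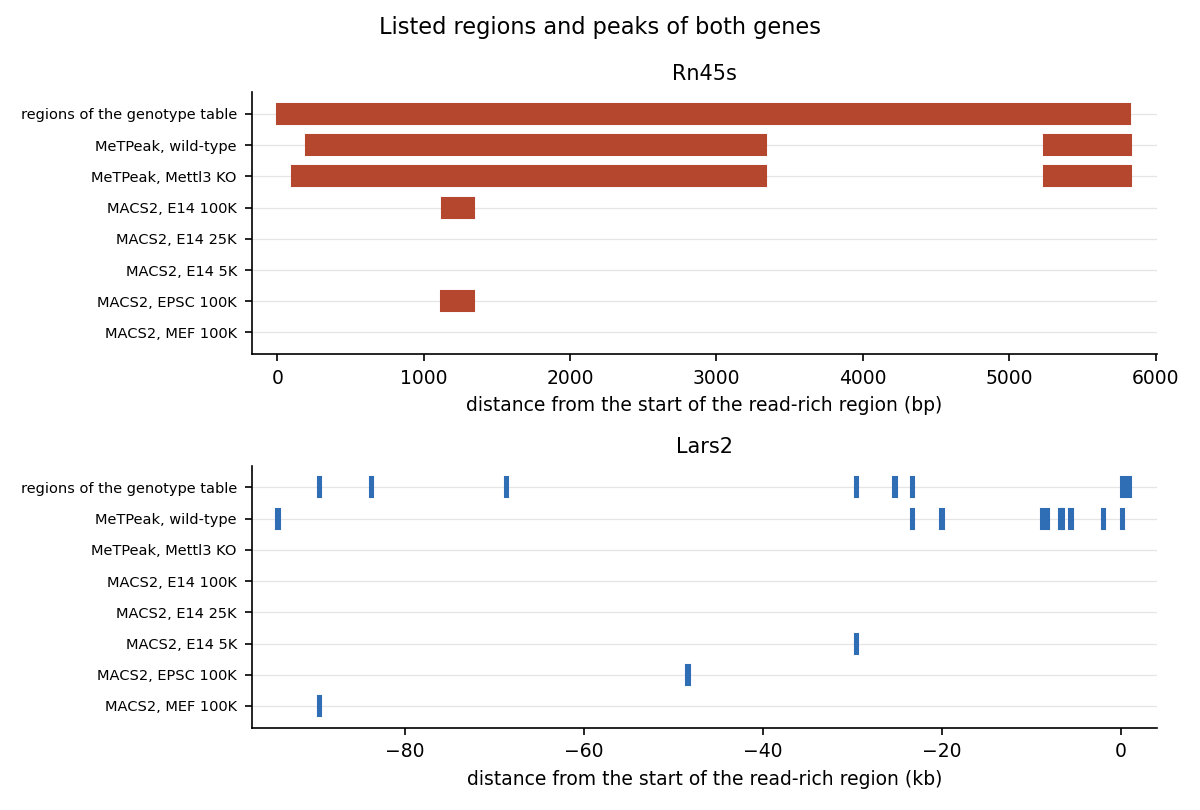
Listed regions and peaks of Rn45s (top, bp) and Lars2 (bottom, kb) by distance from the start of the read-rich region (x axis), with 1 row per file; Lars2 blocks shorter than the line width are drawn wider so as to be seen. The Rn45s peaks of E14 and EPSC at 100K overlie each other within the MeTPeak peaks, while the Lars2 peaks of E14 at 5K, EPSC and MEF lie at 3 different places.

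By pattern over the 4 columns, the genes most like Rn45s among 3442 with a region of at least 1000 reads were Hist1h2ak and Hist1h1d, for histones of the H2A and H1 families, then Atxn10, Crtap and Wdr18. Likeness was the Euclidean distance of log2 RPM after each region's own mean was subtracted, with a median of 3.37 to Rn45s. The distance was 0.49 for Hist1h2ak, with a ratio of 0.462 in wild-type and 0.473 in KO, and 0.58 for Hist1h1d, with 0.255 and 0.304. Atxn10, Crtap and Wdr18 were at 0.76 to 0.80. Their ratios were 0.566, 0.673 and 0.684 in wild-type and 0.579, 0.620 and 0.548 in KO. Crtap and Wdr18 were thus lower in KO, whereas Rn45s went from 0.321 to 0.493. In the authors' deposited table each of these nearest genes fell, by 0.22 to 0.78 (log2), beside 0.0075 for Rn45s. For Hist1h1d, input went from 72.4 to 123 RPM and m6A-CT from 18.4 to 37.4 RPM between wild-type and KO.

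For Lars2 the nearest were Eif3m, a translation initiation factor subunit (distance 0.07), Acly, the enzyme ATP citrate lyase (0.11), the phosphatase gene Ppp1ca (0.15), the mitotic activator gene Cdc20 (0.16) and Paics, an enzyme of purine synthesis (0.16). The median distance to Lars2 was 2.07. Each of these 5 had a ratio from 0.620 to 0.680 in wild-type and from 1.20 to 1.29 in KO, beside 0.707 and 1.17 for Lars2. Rn45s lay at 1.47 from Lars2, in place 870, and Lars2 was in place 89 from Rn45s. With 4 values per gene these distances are a description.

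Genes around both members were taken from lists written with earlier results of these data known. Of all listed regions 4 have an FDR of 0.05 or over and 78 have none, so a listed gene nearly always counts as lower or higher. In these lists, lower, higher and fell refer to m6A-CT over input in a gene's region, not to its RNA level. The counts go by the authors' deposited value, which lay a median of 0.50 (log2) below the RPM change. A gene with a small fall by that value can thus be higher in KO by RPM. Among all 10268 gene entries of the table, with the region of most reads standing for each, the median ratio was 3.44 in wild-type and 1.97 in KO. In the authors' deposited table the median log2 fold change of these entries was -1.33, with 87.1% lower and 12.5% higher at FDR under 0.05.

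Mitochondrial aminoacyl-tRNA synthetases, the family of Lars2, had 14 of 17 members in the table, 10 lower and 4 higher in KO, Lars2 being among the higher by its read-rich region. By the authors' deposited table the methionyl enzyme gene Mars2 fell by 1.97, the prolyl enzyme gene Pars2 by 2.51 the glutamyl enzyme gene Ears2 by 1.00 and the tyrosyl enzyme gene Yars2 by 0.57 (log2). For Mars2, Pars2 and Ears2 the ratios were 5.35, 5.16 and 1.96 in wild-type and 1.96, 1.28 and 1.40 in KO. Yars2 was below 1 in both, at 0.702 and 0.662. Vars2, at 0.503 and 2.31, and Sars2, at 0.467 and 1.75, both named after their values were seen, were below 1 in wild-type and above it in KO by RPM, as the read-rich Lars2 region was; on totals without both genes all 3 were below 1 in KO too. The list's median change in the authors' deposited table, Lars2 included, was -1.03. All other members together held 63.2 RPM of wild-type input and 67.3 RPM of KO input, where the read-rich region listed under Lars2 held 309265 and 215226.

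Cytosolic aminoacyl-tRNA synthetases had 15 of 20 members in the table, 7 lower and 8 higher, with a median change of 0.39 in the authors' deposited table. Eprs, for the glutamyl-prolyl enzyme, was higher by 0.42. By the same value Yars for the tyrosyl enzyme fell by 1.29, Aars for the alanyl enzyme by 0.41 and Sars for the seryl enzyme by 0.40 (log2). Lars, the cytosolic counterpart of Lars2, named here after its value was seen, was higher by 0.66 in its region of most reads, with a ratio of 1.64 in wild-type and 3.67 in KO. By RPM the ratio of Yars was lower in KO too, at 3.31 in wild-type and 1.92 in KO. Those of Aars (1.64 and 1.77), Sars (1.61 and 1.76) and Eprs (2.84 and 4.94) were higher in KO. The median ratio of the list was 1.61 in wild-type and 1.80 in KO.

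Genes of ribosomal RNA transcription and processing had 43 of 51 members in the table, 32 lower and 11 higher, with a median change of -0.70 in the authors' deposited table. By that value Ubtf, the upstream binding factor of RNA polymerase I, fell by 0.98, Rrn3, its initiation factor, by 0.47, and Ncl, nucleolin, by 0.24 (log2). Mybbp1a, a nucleolar regulator, was higher by 0.31. By RPM the ratio of Ubtf was lower in KO too, at 4.92 in wild-type and 3.52 in KO. Those of Rrn3 (1.80 and 1.87), Ncl (1.72 and 2.05) and Mybbp1a (0.986 and 1.71) were higher in KO. The median ratio of the list was 1.80 in wild-type and 1.87 in KO. Of the 47 members with a position, MeTPeak lists a peak for 31 in wild-type and 35 in KO, beside 52.1% and 41.4% of all placed genes. Summed input of the list was 937 RPM in wild-type and 1022 RPM in KO.

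Of the ribosomal RNA m6A methyltransferases, Zcchc4 fell by 2.18 in m6A-CT over input in the authors' deposited table, on 155 reads. Its input was 0.399 RPM in wild-type and 0.647 RPM in KO. Trmt112 was listed with 17 reads in all, of which KO m6A-CT had 0 RPM. Neither carried a MeTPeak peak in either genotype. Mettl5 was not analysed here. Other abundant noncoding RNAs ranged widely in ratio. Malat1, listed together with Mascrna, was at 9.15 in wild-type and 7.50 in KO, Neat1 at 7.46 and 6.53, and Rpph1, the RNA of RNase P, at 2.20 and 1.07. Rmrp, the RNA of RNase MRP, was below 1 in both at 0.721 and 0.511, the second beside 0.493 for Rn45s in KO. Its ratio was thus lower in KO than in wild-type, whereas that of Rn45s was higher. Scarna2, on 31 reads and named after its value was seen, was at 0.382 in wild-type beside 0.321 for Rn45s. In KO it had 0 RPM in input, so it has no ratio there. Its value in the authors' deposited table was 6.26 (log2), beside 0.0075 for Rn45s. Of 12 in that list, 6 were in the table, 5 of them lower and 1 higher.

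The labelled cell types were checked on marker lists. In the genotype table, regions of 9 of 10 pluripotency genes summed to 1052 RPM in wild-type input and 675 RPM in KO input. Regions of 6 of 12 fibroblast genes summed to 3.95 and 4.82 RPM, and those of 6 of 10 endothelial, blood and epithelial genes to 23.5 and 13.6 RPM. Of the 10 pluripotency and 6 fibroblast genes with a position, peaks were listed for 7 and 0 in E14 at 100K. In EPSC they were listed for 5 and 0, and in MEF for 1 and 4. Of all placed genes 18.9%, 27.2% and 39.7% had a peak in these lists, in that order. Positions came from the genotype experiment, made in stem cells, so fibroblast genes without a position there could not be counted. The RPM sums of the marker lists are on totals that include Rn45s and Lars2, which held 76.4% of wild-type and 81.0% of KO input reads. A larger share of both genes lowers every other RPM value. Without their reads all input differences of KO from wild-type shift by 0.31 (log2). The pluripotency sum was lower in KO input by RPM and also after that shift, and its part in the results was not tested.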

How the data were processed

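The members and gene lists were chosen with earlier results of these data known. The authors' tools, per the submitters' processing notes, include Trim Galore, STAR 2.7.2 and MACS2, and the mouse build is mm9. Pooling of replicates is not stated. In the MACS2 lists, per the file layout, the deposited score is 10 times -log10 q, the deposited fold is a ratio at the summit, the deposited -log10 p and q are the caller's, and other deposited columns give the summit offset. The deposited MeTPeak lists give a p-value, log10 of p and FDR, a fold ratio and block counts. The deposited genotype table (exomePeak2, per the labels) gives RPM per group, a log2 fold change, p-value and FDR; all its RPM values are whole reads within 0.01 reads, which gives the totals.

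With 1 column per group, no count test could be run. Ratios, shares, intervals (Wilson for shares, normal on the log scale for ratios) and overlaps of at least 1 bp were computed in Python 3.11.15 with pandas 2.3.3 and scipy 1.17.1 and checked on simulated data. Molecular identifiers are not given in the sources used here, so reads need not be separate molecules. Gene names came from the files; RefSeq names of a later build resolved synonyms. Named genes: both members; the 5 others with most reads; up to 4 per list by reads; the 5 nearest patterns per member. Alternatives covered totals, regions counted, a pseudocount of 0.5 reads, thresholds and overlap.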

Additional observations from a re-analysis of the deposited data

How the results depend on the processing

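Shares computed without the other gene's reads rose for Rn45s to 18.7%, 65.9%, 39.2% and 75.8%, and for Lars2 to 25.6%, 56.7%, 35.5% and 53.1% (wild-type m6A-CT, wild-type input, KO m6A-CT, KO input). On totals without both genes, m6A-CT over input came to 0.119 (wild-type) and 0.206 (KO) for Rn45s, and 0.262 and 0.486 for Lars2, the last turning from above to below 1; other regions above 2-fold numbered 8533 and 3051. These follow from the smaller totals. The change of m6A-CT over input in KO was, by RPM, without both genes and centred on the median of other regions, 0.62, 0.79 and 1.43 for Rn45s and 0.72, 0.89 and 1.53 for Lars2 (log2). Level differences without both genes and centred were 0.70 and 0.42 (input) and 1.49 and 1.75 (m6A-CT) for Rn45s, and -0.21 and -0.49 (input) and 0.68 and 0.94 (m6A-CT) for Lars2. For MACS2 peaks on Lars2, a -log10 q of at least 20 left 0 in E14 at 5K and 0 in MEF, an overlap of at least 50% of the peak left 0 in E14 at 5K, and the gene's whole span gave 1 in EPSC. MeTPeak counts, shared MeTPeak peaks, Rn45s MACS2 peaks and the values with 0.5 reads added or all regions summed stayed as reported. Counts of lower and higher regions with at least 50 reads were within 1.5 times those of all. No paired analysis was possible because the files give 1 value per group, so no replicate could be left out either. Depth limits the small Lars2 regions, which have 76 to 311 reads each, and not the read-rich ones.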
